A study of Mus musculus with 18 samples.

Results

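Spinous keratinocytes are the living layers of the epidermis just above its basal layer. The cells described here were chosen by their own counts. Among the cells kept after filtering, a member had Krt1 and Krt10 together at 0.2% of its unique molecular identifiers (UMIs) or more, under 2 UMIs of Krt79, 0 UMIs of Ptprc, Col1a1 and Col1a2 together under 0.5% of UMIs, and under 3 UMIs of Mki67, Top2a, Cdk1 and Birc5 together. Of 47251 kept cells, 196 were members, 126 from control skin and 70 from expanded skin. All mice had the same surgery, with a cut in the back skin by the tail and a tunnel made below the skin as far as the neck. Expanded mice had a hydrogel expander placed at the neck end of this tunnel, and control mice had no expander. Skin was taken on day 1, 2 or 4, and each of the 10 libraries pooled mice of 1 arm and 1 sequencing round. The labels give no strain, sex, age or allele, and live cells of all skin types were sorted.

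When a keratinocyte leaves the basal layer it lowers Krt5 and Krt14, the keratin pair of basal cells, and makes Krt1 and Krt10 in their place. It also builds more desmosomes and tight junctions and later the proteins and lipids of the cornified envelope, the outer barrier. After injury, keratinocytes turn on a second set of keratins, Krt6a, Krt6b, Krt16 and Krt17, together with secreted alarm proteins. Krt79 marks keratinocytes of the upper hair follicle, which also make Krt10, and the limit on Krt79 removed 53 cells that passed the others.

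The members were unevenly spread. In control skin they numbered 22 and 76 in rounds 1 and 2 of day 1, 3 and 6 in rounds 1 and 2 of day 2, and 19 on day 4. In expanded skin they numbered 12 and 45 on day 1, 2 and 3 on day 2, and 8 on day 4. Day 2 is therefore almost without data for these cells, and both libraries of day 1, round 2, gave most of them. No barcode of a member was seen in more than 1 library. The median member had 10383 to 20986 UMIs by library, and in each day-and-round pair the expanded members were deeper than the control members. Kept cells of all types had medians of 6440.5 to 12847.5 UMIs. Scrublet called 0 members as doublets and 809 of all kept cells, while 5 members carried more than 1 hashtag.

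Markers that the choice of members did not use were those of the label. After each cell was thinned to 2000 UMIs, Krtdap, a secreted protein of differentiating keratinocytes, had a UMI in 170 of 189 members, against 336 of 3072 basal keratinocytes and 53 of 14253 fibroblasts. Sbsn, encoding suprabasin, had one in 150 of 189 members, 1511 of 3072 basal cells and 166 of 14253 fibroblasts. Krtdap lies at chr7:30787896-30791097 and Sbsn at chr7:30751471-30756134 on the mm10 build, both on the plus strand. Lypd3 had a UMI in 63.0% of members against 21.7% of basal cells and 0.393% of fibroblasts, and Krt77, a keratin of suprabasal skin, in 66.7% against 1.01% and 0.168%. Basal keratins were not gone, since Krt15 had a UMI in 67.7% of members and Krt5 in 63.0%. Krt79-positive cells that passed the same other limits, 53 in all, had Krtdap in 86.8%, Sbsn in 88.7%, Lypd3 in 62.3% and Krt77 in 73.6%. None of these markers therefore sets the members apart from them. Krt17 was in 25.4% of members and 81.1% of Krt79-positive cells. Among genes that led the members over the other kept cells were Mt4, Dsg1a, Calm4, Elovl4 and Gadl1, which is a description, since the cells were chosen by keratin counts. Calm4 was higher in Krt79-positive cells, at 3445 CPM (counts scaled to a common total of UMIs) pooled, than in members, at a mean of 2757 CPM. The others of these genes were lower there.

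Markers of other cell types were low but not all absent. Summed over 13 fibroblast markers, control members had 571 to 1729 CPM (their counts scaled to a common total of UMIs) by library and expanded members 615 to 1443, against medians of 70880 and 11550 in the other kept cells of the libraries. The 13 include Col1a1 and Col1a2, which the choice of members limited, so part of this gap was set in advance. All 7 skeletal muscle markers were at 0 in the members of both arms, and Cma1, Mcpt4, Tpsb2 and Fcer1a of the mast cell list were too. Summed neutrophil markers were at 73.5 to 143 CPM in control and 103 to 207 in expanded members, with Csf3r, Mmp9 and Ly6g at 0. Other kept cells had medians of 460 and 4415 CPM for the neutrophil list in control and expanded skin.

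Near the lower limit, 19 members had 0.2% to 0.3% of UMIs from Krt1 and Krt10, and 30 cells with 0.1% to 0.2% fell just outside it. In the best filled library of this kind, the expanded library of day 1, round 2, Krtdap and Sbsn together took a median of 0.352% of UMIs in the 7 cells just inside and 0.261% in the 5 just outside. In the control library of the same round the medians were 0.221% in 2 cells inside and 0.0115% in 9 outside.

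No difference between arms was detected in the share of kept cells that were members. They made up 0.378% and 0.914% of control cells in rounds 1 and 2 of day 1, 0.137% and 0.103% on day 2, and 0.253% on day 4. In expanded skin the shares were 0.406% and 0.766%, 0.0589% and 0.156%, and 0.234%. Few cells stand behind each share, with a Wilson 95% interval of 0.0162% to 0.215% for the lowest share and 0.731% to 1.14% for the highest. The arms overlapped, and round 2 of day 1 was highest in both. The mean was 0.357% ± 0.330 (SD, n = 5) in control and 0.324% ± 0.278 (SD, n = 5) in expanded libraries, with an exact two-sided permutation p of 0.833, where the smallest p that 5 against 5 libraries allow is 0.00794. Keratinocytes were taken as cells within the Ptprc and collagen limits with at least 0.5% of UMIs from Krt1, Krt5, Krt10, Krt14, Krt15 and Krt17. As a share of these, members were lower in expanded skin, at 1.98% ± 0.743 (SD, n = 5) against 5.82% ± 3.89 (SD, n = 5). The exact permutation p was 0.0397, not adjusted for the other shares tried. The control mean leaned on 12.1% in round 2 of day 1, and in round 2 of day 2 the expanded share was higher, at 2.14% against 1.48%. Krt1 and Krt10, which chose the members, also enter that denominator. Basal keratinocytes were the larger part of that denominator and numbered 2042 in expanded and 1124 in control skin. All shares are of cells that passed the sort for live cells, whose part in them was not tested.

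**Figure D1:**
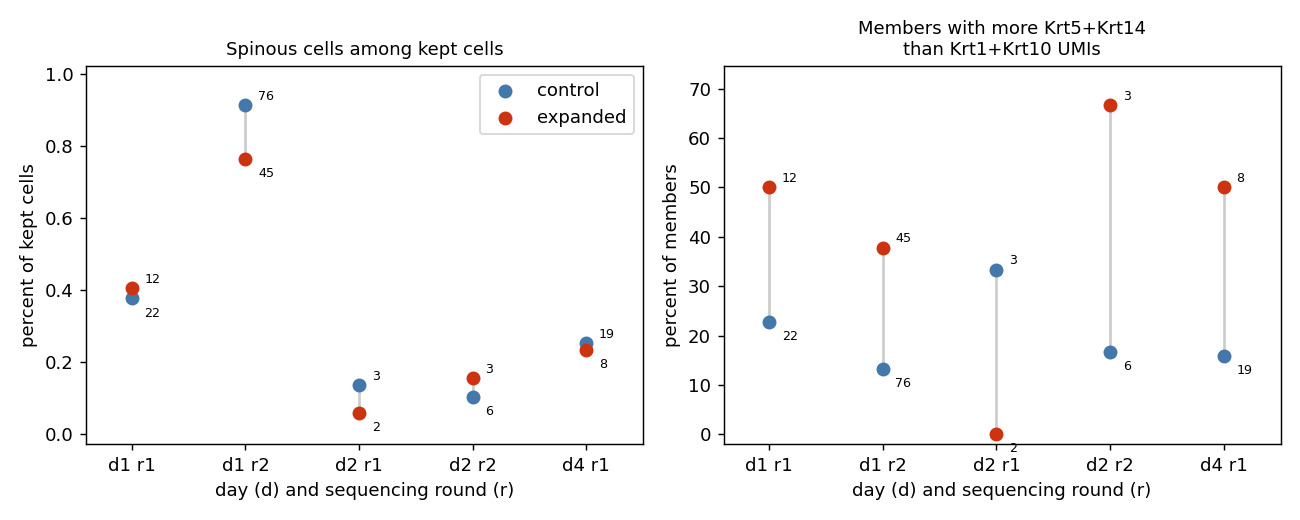
Left, members as a percent of kept cells, and right, members with more Krt5 and Krt14 than Krt1 and Krt10 UMIs as a percent of members, in each library by day (d) and sequencing round (r), with the number of members beside each point. Grey lines join the control and expanded library of a pair. The share of kept cells overlapped between arms, and the share on the right was higher in the expanded library of 4 of 5 pairs.

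The keratins of some members were still mostly basal. In expanded skin 29 of 70 members held more Krt5 and Krt14 than Krt1 and Krt10 UMIs, against 20 of 126 in control skin. By library the share was 22.7% and 13.2% in control and 50.0% and 37.8% in expanded skin on day 1, and 15.8% and 50.0% on day 4. On day 2 it rested on 2 to 6 cells a library, at 33.3% and 16.7% in control and 0% and 66.7% in expanded skin. Expanded libraries were higher in 4 of 5 pairs, with means of 20.3% ± 8.07 and 40.9% ± 25.1 (SD, n = 5). These shares are a description, with no test, since Krt1 and Krt10 also chose the members. They depended on that limit: among members with 1% of UMIs or more from Krt1 and Krt10, the means were 0.377% in control and 4.29% in expanded libraries, 3.91 points apart in place of 20.6.

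**Figure D2:**
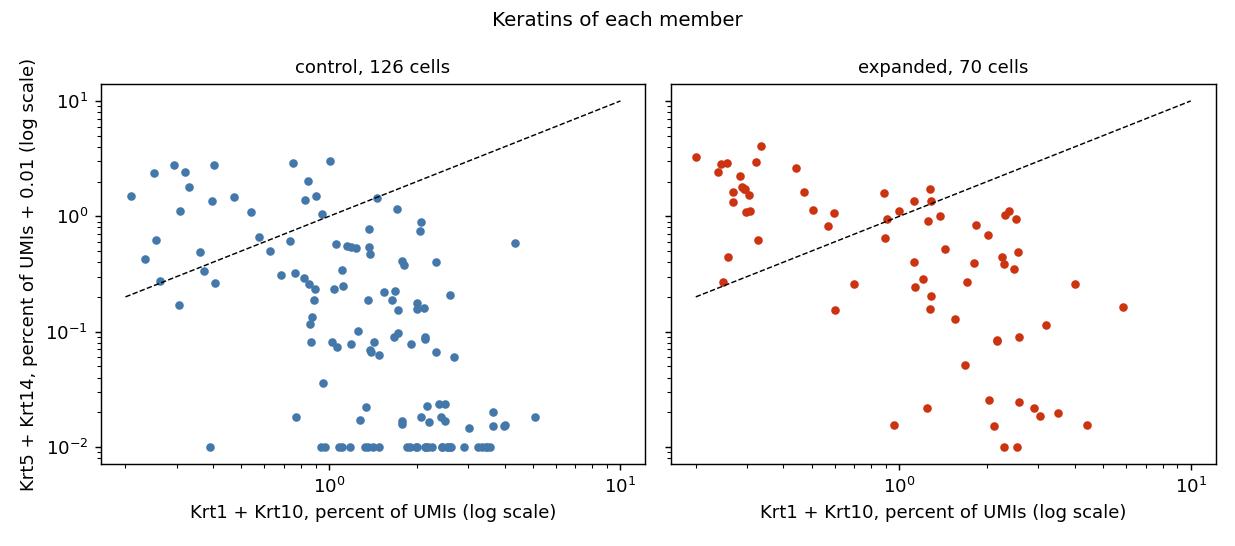
Each point is 1 member, with Krt1 and Krt10 on the x axis and Krt5 and Krt14 plus 0.01 on the y axis, both in percent of the cell's UMIs on log scales, and the dashed line marks equal levels. Apart from the added 0.01, cells above the line are the 20 control and 29 expanded members with more basal keratin.

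Within the members, other genes followed the keratins. In control cells with 0.2% to 0.5% of UMIs from Krt1 and Krt10, Krtdap stood at 1278 CPM and Sbsn at 957 CPM, and in control cells with 2% and over at 9804 and 4433 CPM. The same step in expanded cells was from 3531 to 7073 CPM for Krtdap and from 662 to 1852 CPM for Sbsn. Krt15 was highest at 0.5% to 1% in both arms and fell from there. Over the ranges of 0.2% to 0.5%, 0.5% to 1%, 1% to 2% and 2% and over, it stood at 5158, 6311, 2084 and 1085 CPM in control cells. In expanded cells it stood at 1988, 4980, 4649 and 3964 CPM. The 17, 22, 45 and 42 control cells and the 20, 10, 17 and 23 expanded cells of these ranges share libraries, so these values describe the cells and carry no test.

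Expansion was tested on UMIs summed over the members of each library. Only 3 libraries, the control libraries of both rounds and the expanded library of round 2 on day 1, held the 20 members set as a minimum, and there the quasi-likelihood test of edgeR called 21 of 7407 genes higher (0.284%) and 23 lower (0.311%) in expanded cells at an adjusted p under 0.05. That fit has 1 residual degree of freedom, and its count was unstable. Leaving out 4 members with more than 1 hashtag gave 466 calls, as the prior degrees of freedom estimated by edgeR changed from 6.69 to infinite while the genes with an unadjusted p under 0.05 went from 1056 to 1257. The 6 libraries with 8 members or more, from days 1 and 4, were therefore fitted too, with day as a term. They gave 67 of 3647 genes higher (1.84%) and 130 lower (3.56%), and 35 of the 44 genes of the smaller fit were called again in the same direction. In the 3-library fit the expanded arm is 1 library, so its calls rest on the spread of the 2 control libraries alone and are named as such. Below, values of these 6 libraries carry the test unless another is named, and a gene is said to rise or fall only where it passed. The 130 lower genes of the 6-library fit include Col1a1 and Col1a2, which the choice of members limited and which are not read as results. Each library is a pool of mice. As UMIs were summed over cells, fewer cells with RNA of a gene and less of it per cell cannot be told apart in these sums.

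Of the 4 wound keratins, Krt6a and Krt17 rose in expanded members, while 1.84% of all genes tested rose. The others, Krt6b and Krt16, passed in the 3-library fit, with its expanded arm of 1 library, but not in the 6-library fit, and were lower in expanded than in control members on day 4. The 6-library fit gave a median log2 difference over the list of 3.07 against 0.03 over all genes tested. Krt6a, at chr15:101689910-101694307 on the minus strand, stood at 158, 69.3 and 404 CPM in the control libraries of day 1, round 1, day 1, round 2, and day 4, and at 1708, 1083 and 780 CPM in the expanded ones. All 3 expanded libraries were above all 3 control libraries, and the day 2 libraries kept that order within each pair. Krt6a was 2.71 ± 0.52 (SE) higher on the log2 scale, with an edgeR adjusted p of 0.0104. Krt17, at chr11:100256217-100261029, stood at 317, 104 and 148 CPM in control and 1375, 3292 and 1659 CPM in expanded members, a log2 difference of 3.44 ± 0.47 with an edgeR adjusted p of 0.00137. Its day 2 libraries went the other way in both rounds. Without the expanded library of day 1, round 2, the edgeR adjusted p became 0.115 for Krt6a and 0.0506 for Krt17. For Krt6a it became 0.0816 without the control library of day 1, round 1, and 0.0827 without that of round 2.

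Krt16, the partner of Krt6, stood at 311.04, 245 and 1375 CPM in control and 1728, 3757 and 142 CPM in expanded members on days 1, 1 and 4. Both arms overlapped because day 4 went against day 1, and the 6-library fit gave an edgeR adjusted p of 0.435. Krt6b, at chr15:101676023-101680287, had 2, 0 and 44 UMIs in these control libraries and 392, 860 and 4 in the expanded ones, and its edgeR adjusted p in the 6-library fit was 0.166. The expansion effect on day 4 was below that on day 1 for Krt16 by 6.33 and for Krt6b by 12.4 on the log2 scale, but day 4 had 1 library per arm. On that day 1 cell held 65.2% of the 279 control UMIs of Krt16, and 1 cell held 77.8% of the 27 expanded UMIs. Krt6a and Krt6b are near-identical neighbours, and how the counting split reads between them is not given in the sources used here.

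At least 1 UMI of Krt6a, Krt16 or Krt17 was found in all but 18 of 70 expanded and 51 of 126 control members, without thinning, but few cells held most of the UMIs on day 4. There, 97.3% of the Krt6a UMIs and 98.1% of the Krt17 UMIs of expanded members came from 1 cell, and all 44 control UMIs of Krt6b came from 1 cell. On day 1, round 2, Krt17 was spread wider, with UMIs in 27 of 45 expanded and 24 of 76 control members, and 20.4% of the expanded UMIs in the top cell. UMIs of all of Krt6a, Krt16 and Krt17 were found in 17 expanded and 4 control members. With every cell thinned to 2000 UMIs and the shallower 6 control and 1 expanded members set aside, Krt6a was detected in 50.0% ± 33.0 of expanded and 13.4% ± 12.8 of control members (SD, n = 5), higher in 5 of 5 pairs, with an exact permutation p of 0.0318 and 0.381 after Benjamini-Hochberg adjustment over 16 genes. The expanded mean leaned on day 2, at 100% of 2 and 66.7% of 3 members. On day 1 the expanded shares were 36.4% and 22.2%, against 9.09% and 6.94% in control skin. On day 4 they were 25% and 17.65%. Pooled over libraries, 20 of 69 expanded and 12 of 120 control members had a UMI of Krt6a. Without thinning the Krt6a share was lower in the expanded library on day 4 only. Krt6b was detected in 20.2% ± 19.3 against 1.18% ± 2.63, with an exact permutation p of 0.0476 and again 0.381 adjusted. The expanded mean of Krt6b included 50% from 1 of 2 members in day 2, round 1. Pooled, 10 of 69 expanded and 1 of 120 control members had a UMI of Krt6b. None of the 16 genes passed after adjustment, and Krt6a and Krt6b were under 0.05 before it. With 5 against 5 libraries, even the smallest exact permutation p allowed would not pass this adjustment for 1 gene alone. Not passing therefore says little about a single gene. In fibroblasts, which should lack both, Krt6a had a UMI in 0.314% of control and 0.814% of expanded cells.

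**Figure D3:**
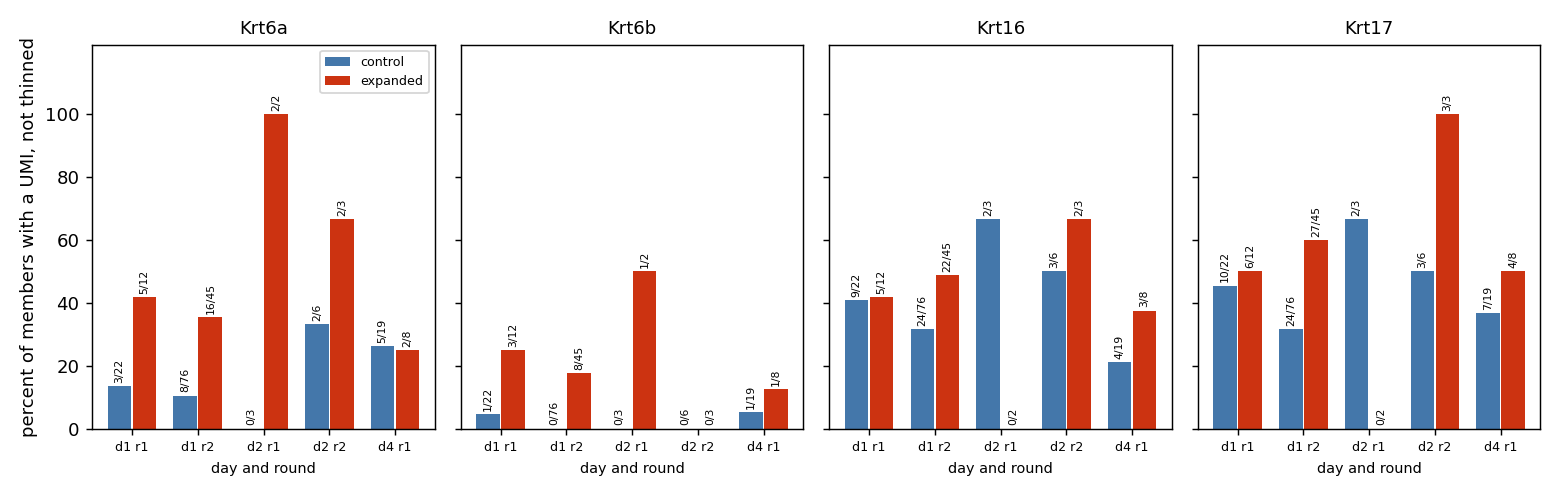
Percent of members with at least 1 UMI of each wound keratin in each library, not thinned, by day and round, with the number of such cells and of members above each bar. Krt6b was found in 1 of 22 and 0 of 76 control members and in 3 of 12 and 8 of 45 expanded members on day 1.

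Lcn2, encoding lipocalin 2, which binds bacterial iron carriers, had 0, 1 and 0 UMIs in the control libraries of days 1, 1 and 4 and 47, 142 and 24 in the expanded ones, and its edgeR adjusted p was 1.3e-05. The levels were 191, 156 and 126 CPM in expanded members, above every control library, and the call held when any of the 6 libraries was left out. After thinning, 10 of 69 expanded and 0 of 120 control members had a UMI of Lcn2. The latter allows a share of up to 2.5% of cells with a UMI at this depth, for counting error only, and without thinning 2 of 126 control members had one. By library mean, 3.30% of fibroblasts and 7.45% of basal cells of expanded skin had one, against 9.93% ± 10.7 of expanded members (SD, n = 5). In control skin 0.294% of fibroblasts and 1.26% of basal cells had one. Other kept cells of the 6 libraries had means of 14.2 CPM in control and 206 CPM in expanded skin, against 0.399 and 158 CPM in members. Higher Lcn2 in expanded skin was therefore not particular to the members. The subunits of calprotectin, S100a8 and S100a9, had 4 and 3 of 69 expanded members with a UMI and were too low for the 6-library fit. Lcn2 was the 1 of 4 alarm proteins tested in the 6-library fit to be called, where 1.84% of all genes were called higher. Wfdc12, chosen after its values were seen, had 41 and 39 UMIs in the expanded libraries of rounds 1 and 2 of day 1 and 0 in all other libraries, and was called in the 3-library fit and not tested in the 6-library one. Summed neutrophil markers were higher in the expanded library of 4 of 5 pairs, and their part in these levels was not tested.

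Among other genes that rose, several held in every library left out. Ifitm3, a membrane protein induced by interferon, stood at 70.7, 109 and 138 CPM in control and 710, 680 and 938 CPM in expanded members on days 1, 1 and 4, higher in 5 of 5 pairs and by 2.81 ± 0.27 on the log2 scale (edgeR adjusted p of 0.000123). Its means in control and expanded skin were 824 and 1444 CPM in other kept cells and 441 and 915 CPM in basal cells. Members were below both, at 106 and 776 CPM. The effect in members was 1.67 above that in basal cells (edgeR adjusted p of 0.000352). Ptges, the prostaglandin E synthase, stood at 56.5, 51.4 and 39.4 CPM against 223, 251 and 216 CPM, a tight set in each arm, with a log2 difference of 2.15 ± 0.26 (edgeR adjusted p of 0.000685). Sprr2a3, a cornified envelope gene of a family of near-identical copies, had 2 UMIs summed over the 5 control libraries and stood at 174, 318 and 495 CPM in expanded members. Gadl1, chosen after its values were seen, rose by 2.00 ± 0.27. Of the 3 genes of the type I interferon list tested, Ifi35 was called, at 2.10 ± 0.35 higher, a call that was lost without either library of day 1, round 2. Beside the counts of this list and the next stand 1.84% of all genes called higher and 3.56% called lower. Stefin genes were mixed, with 1 higher and 1 lower of 5 tested, and Stfa3, which rose, at 8.48, 22.7 and 586 CPM in control and 85.2, 363 and 1517 CPM in expanded members. Stfa3 lost its call without either control library of day 1 (edgeR adjusted p of 0.0957 for round 1 and 0.139 for round 2) or without the expanded one of round 2 (0.115). The stefin A genes are near-identical copies, and so their counts are uncertain.

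Several late differentiation genes fell. Of 9 granular and cornified envelope genes tested, 4 fell and 1 rose, with a median log2 difference of -2.69. Over all 3647 genes tested, 3.56% fell and 1.84% rose. Asprv1, a protease that processes filaggrin, stood at 189, 398 and 360 CPM in control members of days 1, 1 and 4 and at 8.11, 16.4 and 5.27 CPM in expanded ones. It fell by 4.67 ± 0.42 on the log2 scale (edgeR adjusted p of 7.2e-05), and kept that call when any library was left out. Klk7, a protease of shedding corneocytes, stood at 108, 105 and 468 CPM against 0, 14.3 and 0 CPM. Sprr1a, a cornified envelope precursor, stood at 1561, 2007 and 2858 CPM against 56.8, 199 and 648 CPM and fell by 3.24 ± 0.49 (edgeR adjusted p of 0.00247). Without the expanded library of day 1, round 2, the edgeR adjusted p was 0.0849. In day 2, round 2, expanded members had 5107 CPM of Sprr1a, all from 1 of 3 cells. Lor, encoding loricrin of the granular layer, had a UMI in 7 of 189 members after thinning.

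**Figure D4:**
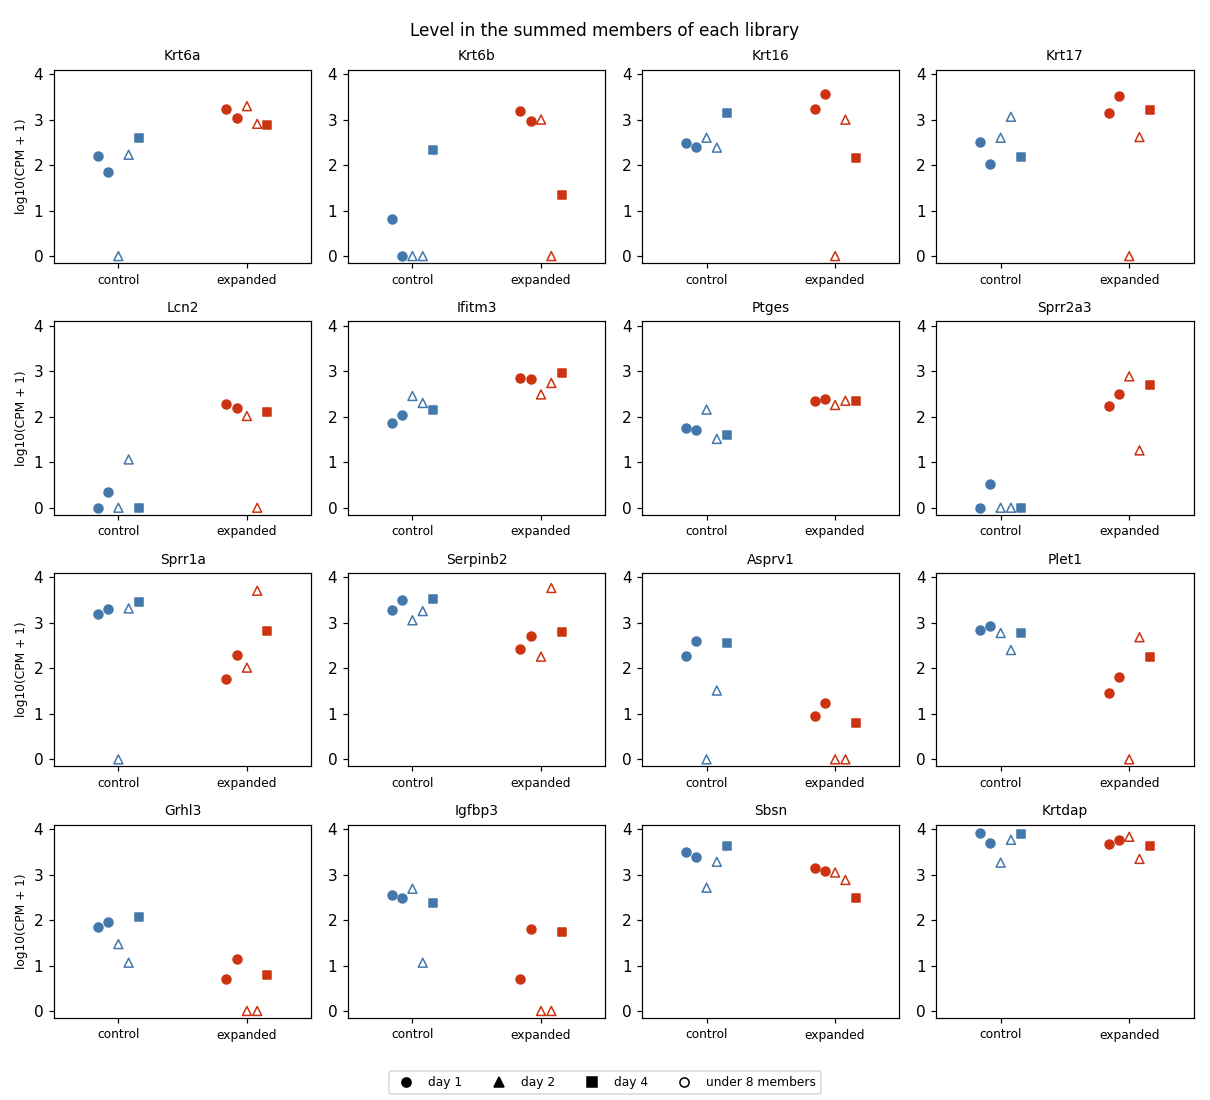
Level of 16 genes in the summed members of each library as log10(CPM + 1), for control (blue) and expanded (red) libraries, with day shown by shape and open symbols for libraries with under 8 members. Among filled symbols, Krt6a, Krt17, Lcn2, Ifitm3, Ptges and Sprr2a3 were higher in every expanded library, while Krt6b, Krt16 and Krtdap overlapped.

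Of 21 genes of spinous differentiation tested, 4 fell and 0 rose, against 3.56% and 1.84% of all genes tested. Grhl3, a transcription factor of barrier formation, stood at 67.9, 89.7 and 113 CPM in control and 4.06, 13.2 and 5.27 CPM in expanded members and fell by 3.15 ± 0.40 (edgeR adjusted p of 0.0012). Sbsn stood at 3136, 2428 and 4158 CPM against 1367, 1226 and 306 CPM and fell by 1.97 ± 0.46 (edgeR adjusted p of 0.025). That call was lost without any of 3 day 1 libraries, at an edgeR adjusted p of 0.165 without the expanded library of round 2, 0.0875 without the control library of round 1 and 0.0582 without that of round 2. Krtdap, by contrast, stood at 8073, 4930 and 7913 CPM against 4726, 5753 and 4320 CPM, which overlapped, with an edgeR adjusted p of 0.376. None of 10 Notch pathway genes passed, which with so few genes cannot be told from the shares over all genes.

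Further genes high in members fell as well. Serpinb2, a serine protease inhibitor chosen here after its values were seen, stood at 1957, 3173 and 3414 CPM in control and 264, 511 and 637 CPM in expanded members, and fell by 2.66 ± 0.36 (edgeR adjusted p of 0.00137). Plet1, a surface protein of the upper follicle also chosen after its values were seen, stood at 687, 874 and 611 CPM against 28.4, 62.5 and 179 CPM. Its edgeR adjusted p of 0.00185 became 0.0997 without the expanded library of day 1, round 2. Igfbp3 stood at 356, 301 and 241 CPM against 4.06, 63.6 and 52.7 CPM and was lower in 5 of 5 pairs, with an edgeR adjusted p of 0.00399 that became 0.0669 without the expanded library of day 1, round 2. Cst6 fell by 4.39 ± 0.84 (edgeR adjusted p of 0.0104), but 60.3% of its UMIs in the control library of day 1, round 1, came from 1 cell, and the edgeR adjusted p was 0.19 without that library and 0.16 without the expanded one of round 2. Upper follicle markers summed to 1000 to 4875 CPM in control and 129 to 3519 CPM in expanded members. That list holds Krt79, which the choice of members limited, together with Krt17, which rose, and Cst6 and Plet1, which fell. Its highest sum was in the control library of day 1, round 1, where 1 cell held most of the Cst6.

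Promoters of genes past both fits were read from RefSeq, on build GRCm38.p6, to show whether those that fell share a motif. Of 24 such genes looked up, 19 had an entry. Among the 19 were Rbp2, which rose and was chosen after its values were seen, and Rgcc and Ly6g6c, which fell. These are not discussed elsewhere in the text. The AP-1 motif TGANTCA, the site of Fos and Jun factors, read the same on both strands and stood in the 250 bases before the start in 3 of 12 genes that fell and 1 of 7 that rose, against 6.75% of all 32851 promoters. Those 4 are printed here 5′ to 3′, since their genes passed both fits and hold the motif, up to the first base of any annotated transcript, with AP-1 matches in capitals. Sprr1a spans chr3:92485896-92486131 (minus strand), Serpinb2 chr1:107511173-107511422 (plus), Plet1 chr9:50494275-50494524 (plus) and Ifitm3 chr7:141010771-141010994 (minus).
Sprr1a: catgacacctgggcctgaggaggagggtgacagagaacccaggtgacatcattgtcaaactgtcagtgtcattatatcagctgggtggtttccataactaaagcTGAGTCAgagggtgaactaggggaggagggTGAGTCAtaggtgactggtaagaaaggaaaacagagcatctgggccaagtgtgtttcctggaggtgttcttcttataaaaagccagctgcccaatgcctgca
Serpinb2: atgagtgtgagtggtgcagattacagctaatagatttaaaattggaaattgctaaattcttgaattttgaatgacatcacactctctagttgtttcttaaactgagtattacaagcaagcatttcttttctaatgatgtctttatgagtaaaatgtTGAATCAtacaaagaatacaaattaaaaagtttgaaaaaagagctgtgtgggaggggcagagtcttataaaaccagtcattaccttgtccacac
Plet1: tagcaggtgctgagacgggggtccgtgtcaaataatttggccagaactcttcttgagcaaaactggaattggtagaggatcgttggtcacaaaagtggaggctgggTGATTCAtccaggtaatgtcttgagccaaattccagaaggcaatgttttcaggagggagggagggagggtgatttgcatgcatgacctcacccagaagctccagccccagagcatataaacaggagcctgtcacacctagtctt
Ifitm3: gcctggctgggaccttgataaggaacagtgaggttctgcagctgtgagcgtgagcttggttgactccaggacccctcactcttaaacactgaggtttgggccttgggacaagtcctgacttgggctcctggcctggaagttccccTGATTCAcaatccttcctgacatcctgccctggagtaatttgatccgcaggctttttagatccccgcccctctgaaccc
A match is a string of letters and shows no binding. Of 12 genes of AP-1 factors tested, Fosl1 fell, at 161, 319 and 394 CPM in control and 89.2, 68.0 and 237 CPM in expanded members, and the others did not pass. As 3.56% of all genes tested fell, 1 of 12 is not read as a result about these factors. The Fosl1 call was lost without the expanded library of day 1, round 1 (edgeR adjusted p of 0.066), or without the control (0.141) or expanded (0.257) library of round 2.

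Junction genes fell in part. Of 16 desmosome and tight junction genes tested, 4 fell and 1 rose, against 3.56% and 1.84% of all genes tested. Cldn4, a claudin chosen after its values were seen, stood at 173, 336 and 355 CPM in control and 44.6, 51.5 and 0 CPM in expanded members, and the arms did not overlap. The desmosomal cadherin Dsg3 rose by 1.26 ± 0.26, higher in 5 of 5 pairs. Without the expanded library of day 1, round 2, the edgeR adjusted p became 0.072 for Cldn4 and 0.0849 for Dsg3, and for Dsg3 it was also 0.0868 and 0.121 without the control library of round 1 or 2.

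The EGF receptor ligand Areg stood at 568, 471 and 631 CPM in control and 150, 240 and 348 CPM in expanded members, and Errfi1, a feedback inhibitor of that receptor, fell with it, 2 of 7 genes tested. For this and the next lists, the shares over all 3647 genes tested were 3.56% lower and 1.84% higher. Il1rn, the antagonist of interleukin 1, and Il33, an alarm cytokine, were the 2 of 7 genes of the interleukin 1 list that fell. Of 22 immediate early genes, 4 fell, Phlda1, Nr4a1, Nr4a2 and Nr4a3, and 0 rose. Heat shock genes Hspb1 and Dnajb1, which tissue digestion can induce, fell as 2 of 12 tested, and their part in the immediate early genes was not tested. Left out in turn, the 4 libraries of day 1 each ended the call of Areg (edgeR adjusted p of 0.0794 to 0.165) and of Dnajb1 (0.132 to 0.265), and the expanded library of round 2 also ended those of Errfi1, Il1rn, Il33, Phlda1, Nr4a1, Nr4a2, Nr4a3 and Hspb1 (0.0849 to 0.175). Leaving out control members of round 2, day 1, gave an edgeR adjusted p of 0.0997 for Errfi1, 0.0789 for Il1rn, 0.12 for Nr4a2 and 0.15 for Nr4a3, and leaving out those of round 1 gave 0.0832 for Nr4a1 and 0.11 for Nr4a3. Respiratory chain genes shifted little each, with a median log2 difference of 0.38. Only 1 of 59 was called, as higher, near the 1.84% of all genes. Higher in all 3 expanded libraries than in any control library were 24 of 59, against 12.9% of all 3647 genes tested. None of the 59 was lower in all 3, against 10.1% of all genes.

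Fibroblast transcripts fell in the members. Col3a1, a dermal collagen, stood at 116, 151 and 187 CPM in control and 20.3, 1.1 and 0 CPM in expanded members, and fell by 4.93 ± 0.59 (edgeR adjusted p of 0.000685). Sparc, another gene of matrix-making cells, fell by 3.60 ± 0.54, with an edgeR adjusted p of 0.111 without the expanded library of day 1, round 2. Fibroblasts were 12724 of the kept control cells and 2305 of the kept expanded cells, and their part in these levels was not tested.

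Depth and keratin state were not equal between arms, and the calls were counted again with each held closer. With cells thinned to 2000 UMIs, 13 of 451 genes tested were called. Among the 106 control and 41 expanded members with more Krt1 and Krt10 than Krt5 and Krt14, 10 of 2887 genes were called. They were Asprv1, Mast4, Gadl1, Ptges, Il33, Col3a1, Sparc, Thbs1, Rgs2 and Col1a1, the last of which the choice of members limited. In these cells Krt6a had a log2 difference of 1.84 and Krt17 of 2.07, with edgeR adjusted p of 0.706 and 0.315, Sprr1a one of -3.35 with an edgeR adjusted p of 0.112, and Asprv1 one of -4.51 with 0.0142. Those with more Krt5 and Krt14 held 4660 CPM of Krt16 and 1962 CPM of Krt6a in expanded skin, against 173 and 229 CPM in control skin.

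Hashtags allowed a view by mouse on day 1, round 2. They gave 16, 35 and 13 members to 3 control mice and 7, 9 and 27 to 3 expanded mice, and over all hashed libraries 147 of 162 members were assigned, 0 of them to a hashtag of the other arm. Only the libraries of day 1, round 2, listed 6 hashtags for 3 mice each. The other hashed libraries listed only those of their own mice and could not show a hashtag of the other arm. Over these 6 mice edgeR called 136 of 2461 genes higher (5.53%) and 163 lower (6.62%), 31 of them among the 44 of the 3-library fit and in the same direction. Krt17, Krt6a, Lcn2 and Ifitm3 were higher and Sprr1a, Serpinb2, Asprv1 and Sbsn lower, with edgeR adjusted p of 0.000417, 0.00764, 0.00395, 0.00102, 0.00465, 0.000417, 0.000727 and 0.00532 in that order. All mice of an arm shared 1 tube, so arm and tube cannot be told apart, and these mice are not independent of the library values above.

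The difference between arms was then compared with that in basal keratinocytes, cells with basal keratins that are below the Krt1 and Krt10 limit. In the 6 libraries it was not the same for 103 of 9743 genes, 41 higher (0.421%) and 62 lower (0.636%) in members. With cells thinned to 2000 UMIs the count was 11, and it was 19 without the control library of day 1, round 1. Krt17 had a log2 difference of -0.79 in basal cells that did not pass (edgeR adjusted p of 0.168), and its effect in members was 4.21 higher on the log2 scale (edgeR adjusted p of 7.7e-14). Basal cells of control skin already had a mean of 3722 CPM of Krt17, against 189.5 CPM in control and 2109 CPM in expanded members. After thinning, 60.8% of basal cells had a UMI of Krt17 and 22.5% one of Cd34, from the list of follicle bulge markers. Krt6a had means of 523 and 606 CPM in control and expanded basal cells, against 211 and 1190 CPM in members. For Krt6a, the basal difference was 0.10 and the effect in members 2.57 higher (edgeR adjusted p of 5.4e-06). Krt16 passed in the same direction, at 2.38 (edgeR adjusted p of 0.00988). Krt6b passed in the other, at -7.74 (edgeR adjusted p of 1.4e-05), a value that depends on the prior count because control basal cells had a mean of 0.139 CPM and expanded ones 9.85 CPM. For Asprv1 the effect in members minus that in basal cells was -3.78 (edgeR adjusted p of 2.8e-09), and for Plet1 -1.87 (0.000115). For Lcn2 it was 6.40, a value that depends on the prior count because control members held 1 UMI.

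**Figure D5:**
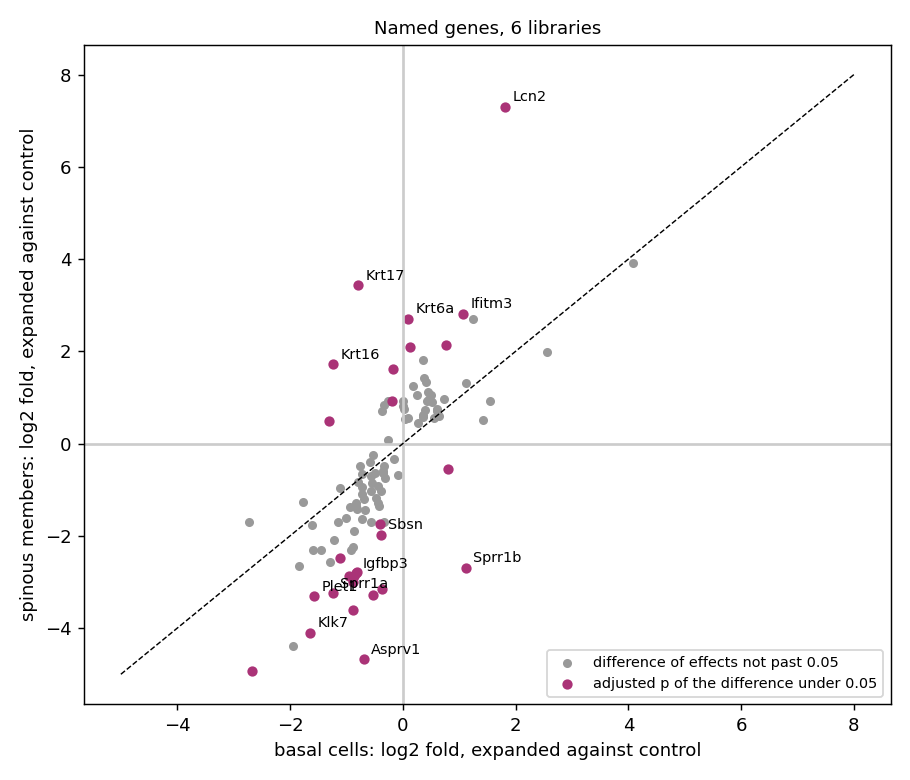
Log2 difference, expanded against control, in basal keratinocytes (x) and in the spinous members (y) for 108 named genes of the 6-library fits, where purple points mark the 28 whose effects differed at an edgeR adjusted p under 0.05 and the dashed line marks equal effects. Krt17 and Krt16 lie above 0 in members and below 0 in basal cells, and Asprv1 lies far below the line.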

How the data were processed

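Single cells of mouse skin were measured by droplet 3′ mRNA sequencing, with 10 mRNA libraries in 6 groups of arm and day. The deposited matrices hold UMI counts. The authors made them with Cell Ranger 6.1.2 on the mm10 build, per the submitters' processing notes. They list 32285 genes, with 17726739 to 75470722 UMIs per library. A barcode was kept if it had 200 genes, 500 UMIs and no more than 10% of UMIs from mitochondrial genes.

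Members' UMIs were summed per library. edgeR 4.0.16 under R 4.3.3 ran its quasi-likelihood test after filterByExpr and TMM scaling, with Benjamini-Hochberg adjustment over all genes tested. SE is the log2 difference divided by the root of the F statistic. DESeq2 1.42.0 was an alternative. The fit was tested on simulated counts. CPM is scaled to the members' own UMIs in a library. Each library pools mice, so p-values measure the spread between pools. Same-numbered libraries share a sequencing round, per the labels, and this pairs them; their deviations on day 1 correlated at -0.282 and -0.057. The limit that a count of 0 allows takes 3 counts and covers counting error only. Doublets were called with Scrublet in scanpy 1.11.5 and by hashtags. A member went to a mouse where its first hashtag had 10 counts or more and 3 times the next.

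The members and gene lists were chosen with earlier results of these data known. The genes named passed the 3-library fit, moved the same way in all 5 pairs and reached 20 CPM, or were up to 4 of smallest p of each list, the markers, or the genes tested for detection. Others are said to be chosen after their values were seen. Day 2 against day 1, day 4 against days 1 and 2, and Krt79-positive cells could not be fitted as designed, because too few libraries held 20 cells. The 6-library, 10-library and per-mouse fits were added after the member counts were seen.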

Additional observations from a re-analysis of the deposited data

Results flagged for a closer look

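With 58 sets of a gene and an arm examined over 5 libraries, 18 had a library far from the other 4, and chance flags about 1 in 20. Most of these libraries were from day 2 or day 4 and held 2 to 19 members. The control library of day 4 was high for Cstdc5 (1660 CPM), Stfa3 (586.3 CPM), Krt16 (1375 CPM), Krt6b (216.8 CPM), Klk7 (468.1 CPM) and Rab31 (9.85 CPM), and the expanded one for Stfa3 (1517 CPM). On day 2, round 2, the 3 expanded members were high for Serpinb2 (5866 CPM), Sprr1a (5107 CPM) and Mast4 (414.1 CPM), and the 6 control members for Krt17 (1158 CPM), Gsdmc (31.59 CPM) and Lcn2 (10.53 CPM). The 3 control members of day 2, round 1, were high for Ptges (142.8 CPM). On day 1 the expanded library of round 1 was high for Wfdc12 (166.3 CPM) and Sparc (28.39 CPM), the expanded one of round 2 for Klk7 (14.26 CPM) and the control one of round 2 for Sprr2a3 (2.39 CPM).

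The difference between arms differed between day 4 and day 1 for 24 genes by edgeR, with 1 library per arm on day 4. On the log2 scale the day 4 difference minus that of day 1 was -12.37 for Krt6b, -6.327 for Krt16, -5.964 for Cstdc5 and -2.382 for Sbsn. The Krt6b value depends on the prior count. Between members and basal keratinocytes it differed for 103 genes.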

How the results depend on the processing

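Counts of genes called depended on the processing. The 3-library count of 44 became 197 with 6 libraries, 299 with 6 mice, 376 with no filter on low counts, 179 with Krt1 and Krt10 at 1% or more, 184 in cells with more Krt1 and Krt10 than Krt5 and Krt14, 466 without called doublets and 3 after thinning to 2000 UMIs. DESeq2 gave 47 and all 10 libraries 54. The 6-library count of 197 became 206 with the replicate block, of which 184 were the same genes in the same direction, 129 with DESeq2, 396 with no filter, 42 at 1% or more, 10 in cells with more Krt1 and Krt10, 13 after thinning and 321 on day 1 only. Leaving out libraries in turn gave 21 to 371, with 21 without the expanded and 60 without the control library of day 1, round 2. The basal comparison fell from 87 to 13 in 3 libraries and from 103 to 11 in 6 libraries after thinning, and leaving out libraries gave 19 to 123. The arms' difference in the share of kept cells, -0.03295 percentage points, was 0.01217 among cells without Ptprc and -3.843 among keratinocytes, and -0.1433 to 0.1064 leaving out libraries, with 0.03332 and 0.009134 without the expanded library of day 2, round 1 or 2. Its exact permutation p was 0.5 when paired by round. The share with more Krt5 and Krt14 differed by 20.55 points, by 3.908 with Krt1 and Krt10 at 1% or more and by 14.11 to 30.78 leaving out libraries, the highest without the expanded library of day 2, round 1. The cause of these shifts was not tested, except that thinning left fewer genes to test. The block and leaving out libraries could not be run with 3 libraries, nor could a limit of 0 collagen UMIs, which emptied 1 library. The number of members limits these values, since 5 of 10 libraries held 8 or fewer.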
